A study of Mus musculus with 13 samples.

Results

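The miR-34 and miR-449 family was followed in mouse plasma through its 10 mature miRNAs, out of 1907 mature miRNAs in the deposited table of read counts. These were both arms (5p and 3p) of the hairpins mir-34a, mir-34b, mir-34c, mir-449a and mir-449c. They were taken by name (mmu-miR-34a-5p and so on), and the family was chosen by its counts in Givinostat and vehicle mice of these same libraries, so the values of Givinostat against vehicle are a description here, with no test. Of the 10 members, 7 had at least 1 count in some library, 3 had none, and 3 passed the filter on low counts that leaves 368 miRNAs for the model across all miRNAs.

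The study asked how long oral dosing with Givinostat, an inhibitor of histone deacetylases, acts on dystrophic mice, and small RNA of plasma was sequenced from 13 male mice, each mouse being 1 library. The Givinostat group held 3 mdx mice (31, 34 and 35) gavaged at 37.5 mg/kg on 5 days a week for 15 weeks, and the vehicle group held 4 mdx mice (40, 41, 42 and 43) given 0.5% methylcellulose on the same schedule. The naive mdx group held 3 undosed mdx mice (36, 37 and 39), and the naive wt group held 3 undosed C57BL/10J mice (86, 89 and 95). All mdx mice were C57BL10ScSn-Dmdmdx/J animals, which lack dystrophin, the protein missing in Duchenne muscular dystrophy, and develop a milder disease than patients. The strain tag names C57BL/10J for every sample, so genotype was taken from the sample titles.

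miRNAs of this family are short RNAs that lower the output of target mRNAs, which they find chiefly through the seed near their 5′ end. miR-34a is a well-known direct target of the tumour suppressor p53 and slows the cell cycle, which is not meant to set it apart from the other members. The mir-34b/c and mir-449 clusters are known for high expression in testis and in epithelia with motile cilia, where they are needed for making cilia. In plasma, release by more cells, more RNA per cell and slower clearance of a miRNA cannot be told apart.

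The mature sequences below are shown because the seed groups the family across hairpins and because the arms that were read differ between hairpins. A mature sequence was found for 9 of the 10 members in the RefSeq table for GRCm38.p6, and miR-34c-5p had no entry there. Capitals mark bases 2 to 8, the seed, counted from 1 at the 5′ end.
mmu-miR-34a-5p: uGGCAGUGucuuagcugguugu
mmu-miR-34b-5p: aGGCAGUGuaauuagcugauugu
mmu-miR-449a-5p: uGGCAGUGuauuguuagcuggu
mmu-miR-449c-5p: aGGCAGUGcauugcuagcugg
mmu-miR-34b-3p: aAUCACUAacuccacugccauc
mmu-miR-34c-3p: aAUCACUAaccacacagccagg
mmu-miR-34a-3p: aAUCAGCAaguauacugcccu
mmu-miR-449a-3p: cAGCUAACaugcgacugcucuc
mmu-miR-449c-3p: cAGUUGCUagcugcacuacccu

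The 4 5p arms with a sequence shared the seed GGCAGUG, and miR-34b-3p shared AUCACUA with miR-34c-3p. Of the 1623 miRNAs in the count table that had a sequence, 0.246% held the first seed and 0.123% the second, and every one of these was a family member. The other 3p arms each had a seed of their own. miR-34b-3p and miR-34c-3p were identical over their first 10 bases and at 17 of 22 positions, so reads of these arms are told apart by their 3′ ends. miR-34a-5p and miR-449a-5p matched over their first 9 bases and at 15 of 22 positions, and miR-449a-5p and miR-449c-5p matched at 18 of 21.

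The hairpins of mir-34b and mir-449a are shown with both arms in capitals, since the plasma counts came almost wholly from the 3p arm of the first and the 5p arm of the second.
Mir34b: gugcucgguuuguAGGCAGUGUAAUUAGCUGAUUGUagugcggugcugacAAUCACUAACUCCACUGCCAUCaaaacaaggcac
Mir449a: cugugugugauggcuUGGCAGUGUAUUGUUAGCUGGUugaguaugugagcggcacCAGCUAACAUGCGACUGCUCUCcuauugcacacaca

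On GRCm38, Mir34a lies at chr4:150068454-150068555 on the plus strand, within an exon of Gm37795. Mir34c (chr9:51103034-51103110) and Mir34b (chr9:51103562-51103645) both lie on the minus strand with 451 bases between them, opposite an intron of Btg4. Mir449c (chr13:113035983-113036091) and Mir449a (chr13:113037534-113037624) both lie on the plus strand with 1442 bases between them, in an intron of Cdc20b. Members of a cluster share a locus and are not independent of each other.

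Library totals ran between 1167161 and 2899315 counts, and 3 counts, the level that a count of 0 allows, came to between 1.03 and 2.57 CPM, the count scaled to a common library size. These limits and the intervals below cover counting error only. The liver miRNA miR-122-5p held between 1.37 and 16.1% of a library in mdx mice and between 37.6 and 64.6% in naive wt mice, so values set by library total depend on it. CPM in what follows is scaled by edgeR's TMM factors unless said otherwise.

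Over all 13 libraries the family had 1568 counts, of which 91.3% belonged to miR-34c-5p, miR-34c-3p and miR-34b-3p. In Givinostat mice 31, 34 and 35 the family made up 0.00974, 0.0351 and 0.0124% of all counts. The share lay between 0.00447 and 0.00612% in vehicle mice, between 0.00694 and 0.00733% in naive mdx mice, and between 0.00255 and 0.00311% in naive wt mice. On these unscaled shares no groups overlapped, Givinostat being highest, then naive mdx, vehicle and naive wt mice. On the TMM scale the summed level was 200.2 ± 154 CPM in Givinostat (SD, n = 3), 52.3 ± 5.95 CPM in vehicle (SD, n = 4), 63.4 ± 13.6 CPM in naive mdx (SD, n = 3) and 31.9 ± 5.64 CPM in naive wt mice (SD, n = 3). On that scale the vehicle and naive mdx mice overlapped.

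The hairpins differed in the arm that reached the library. For mir-34b, 643 of 644 counts came from the 3p arm (99.8%, exact 95% Clopper-Pearson interval 99.1 to 99.996%), and the only count of miR-34b-5p was in Givinostat mouse 34. For mir-34c both arms were read in every mouse, with 67.6% of 789 counts from the 5p arm (interval 64.2 to 70.8%). All 74 counts of mir-34a, all 57 of mir-449a and all 4 of mir-449c came from the 5p arm, and miR-34a-3p, miR-449a-3p and miR-449c-3p had 0 counts in every library. The 5p arms together made up between 24.7 and 51.4% of the family's counts per mouse. miR-449b, a row of the table from outside the 10 members, named after its counts were seen, had 0 counts.

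**Figure D1:**
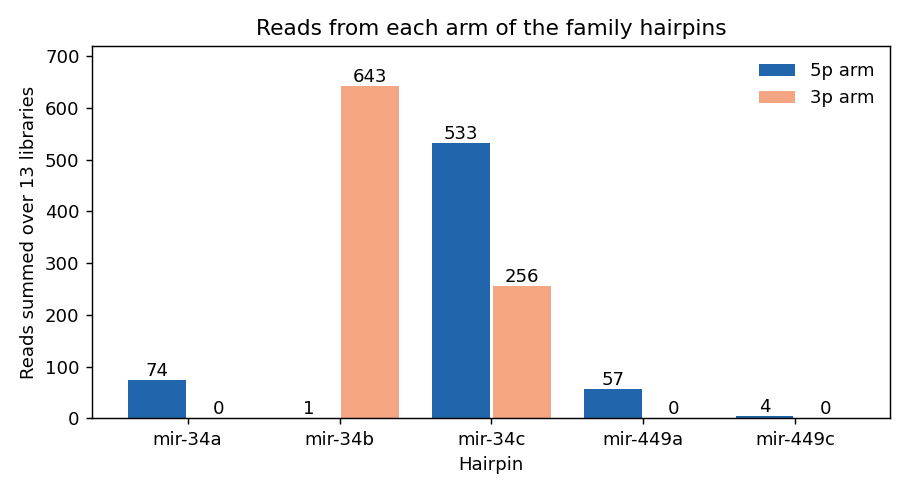
Reads from the 5p arm (blue) and the 3p arm (orange) of each hairpin, summed over 13 libraries. mir-34b has 643 reads from its 3p arm and 1 from its 5p arm, mir-34c has 533 and 256 from its 5p and 3p arms, and the other hairpins have reads from the 5p arm only.

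miR-34c-5p, the 5p arm of the second hairpin of the chromosome 9 cluster, had 51, 179 and 54 counts in Givinostat mice 31, 34 and 35. It had 18, 21, 25 and 24 counts in vehicle mice 40 to 43. Mouse 34 stood far above its group, and all 3 Givinostat mice lay above all 4 vehicle mice. In naive mdx mice 36, 37 and 39 it had 15, 49 and 37 counts, and in naive wt mice 86, 89 and 95 it had 16, 16 and 28 counts. Naive mdx mouse 36 lay within the naive wt range once scaled, so these groups overlapped. The levels were 71.7 ± 59.6 CPM in Givinostat (SD, n = 3), 15.6 ± 2.74 CPM in vehicle (SD, n = 4), 21.4 ± 12.7 CPM in naive mdx and 10.8 ± 2.15 CPM in naive wt mice (SD, n = 3 each), and naive mdx and vehicle, which are neighbours by level, differed by less than the SD of the naive mdx mice.

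miR-34b-3p, the most counted member, had 62, 155 and 80 counts in Givinostat mice 31, 34 and 35, and 48, 20, 27 and 50 counts in vehicle mice 40 to 43. It had 46, 36 and 48 counts in naive mdx mice 36, 37 and 39, and 22, 21 and 28 counts in naive wt mice 86, 89 and 95. Givinostat mice were again all above vehicle mice, and naive mdx mice were all above naive wt mice. The levels were 74.8 ± 42.8 CPM in Givinostat (SD, n = 3), 25.2 ± 9.04 CPM in vehicle (SD, n = 4), 26.8 ± 1.78 CPM in naive mdx and 12.98 ± 1.06 CPM in naive wt mice (SD, n = 3 each). Naive mdx and vehicle were again neighbours and differed by less than the SD of the vehicle mice.

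miR-34c-3p, the partner arm of miR-34c-5p, had 18, 90 and 24 counts in Givinostat mice 31, 34 and 35, and 12, 14, 12 and 12 counts in vehicle mice 40 to 43. It had 15, 20 and 18 counts in naive mdx mice 36, 37 and 39, and 10, 3 and 8 counts in naive wt mice 86, 89 and 95. Mouse 34 was again the highest, and the naive mdx mice lay above the naive wt mice without overlap. The levels were 33.7 ± 32.2 CPM in Givinostat (SD, n = 3), 8.89 ± 1.13 CPM in vehicle (SD, n = 4), 11.1 ± 2.64 CPM in naive mdx and 3.93 ± 2.32 CPM in naive wt mice (SD, n = 3 each).

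**Figure D2:**
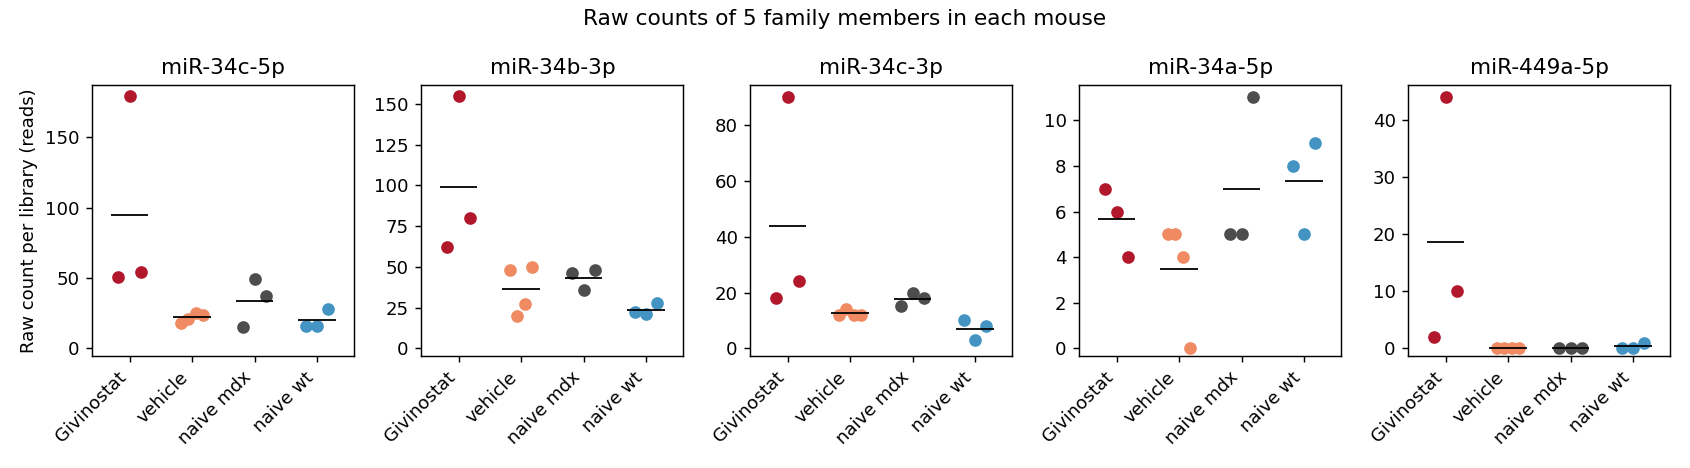
Raw counts per library (vertical axes, each with its own scale) of 5 members in the 4 groups, with 1 point for each mouse and a bar at the group mean. Givinostat mouse 34 is the highest point for miR-34b-3p (155 counts), miR-34c-5p (179), miR-34c-3p (90) and miR-449a-5p (44), and not for miR-34a-5p (6).

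The members below the filter were read a few times each. miR-34a-5p, from the hairpin on chromosome 4, had 7, 6 and 4 counts in Givinostat mice 31, 34 and 35, 5, 5, 4 and 0 counts in vehicle mice 40 to 43, 5, 5 and 11 counts in naive mdx mice 36, 37 and 39, and 8, 5 and 9 counts in naive wt mice 86, 89 and 95. Its group means were 4.06 ± 0.70 CPM in Givinostat (SD, n = 3), 2.56 ± 1.72 CPM in vehicle (SD, n = 4), 4.21 ± 1.54 CPM in naive mdx and 4.04 ± 1.13 CPM in naive wt mice (SD, n = 3 each), all overlapping. Between naive mdx and naive wt mice a two-sided exact permutation test gave p = 0.9, where 3 against 3 mice cannot give less than 0.1. In vehicle mouse 43 the count of 0 allows up to 2.14 CPM by library total.

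miR-449a-5p, from the Cdc20b intron, was read 24.6 times per 100 counts of miR-34c-5p in Givinostat mouse 34, 18.5 times in mouse 35 and 3.92 times in mouse 31. By library total the 44 counts of mouse 34 correspond to 32.2 CPM (exact 95% Clopper-Pearson interval 23.4 to 43.3 CPM), the 10 counts of mouse 35 to 7.24 CPM (3.47 to 13.3 CPM) and the 2 counts of mouse 31 to 1.39 CPM (0.17 to 5.03 CPM). The interval of mouse 31 reaches below what a count of 0 allows in every vehicle library (1.97 to 2.34 CPM), so that mouse could not be told from the vehicle mice at this depth. Outside the Givinostat group the only count of miR-449a-5p was in naive wt mouse 95, the deepest library. miR-449c-5p, from the same cluster, had 4 counts in mouse 34 and 0 elsewhere, or 2.93 CPM (0.80 to 7.50 CPM) by library total.

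The comparison of naive mdx with naive wt mice was not used to choose the family, and it asks whether plasma of dystrophic mice differs from that of healthy mice. All 3 tested members had higher means in naive mdx mice, and edgeR's quasi-likelihood test with Benjamini-Hochberg adjustment over 368 miRNAs called 0 of them, where 26.9% of all tested miRNAs were called higher and 16.6% lower. Unadjusted, 2 of the 3 had an edgeR p under 0.05. So had at least the 26.9% called higher and the 16.6% called lower. The full share of tested miRNAs with such a p was not counted, so the 2 do not set the members apart. DESeq2 called 0 of the 3 members, and 106 miRNAs higher in all. limma on the authors' normalised values called 2 of the 3 members. It called 115 of 368 miRNAs higher with a pseudocount of 1 and 112 with a pseudocount of 5. The log2 fold change of miR-34b-3p was 1.04 (SE 0.41, 95% interval 0.16 to 1.92, edgeR adjusted p = 0.0518), that of miR-34c-3p was 1.49 (SE 0.63, interval 0.16 to 2.82, edgeR adjusted p = 0.0609) and that of miR-34c-5p was 0.97 (SE 0.54, interval -0.17 to 2.10, edgeR adjusted p = 0.146). The median over the 3 was 1.04, beside 0.04 over all tested miRNAs. The members whose naive mdx and naive wt mice did not overlap were miR-34b-3p and miR-34c-3p, which was the case on the higher side for 29.9% of all tested miRNAs. By size of fold change the 3 ranked 68, 87 and 94 of 368 from the top.

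These values rest on the scaling between libraries, as the naive wt libraries hold the large share of miR-122-5p. With plain library totals the fold change of the median miRNA moved up by 0.39 on the log2 scale. All 3 members were then called, where 118 of 368 miRNAs were called higher and 23 lower. The members were miR-34c-5p at 1.30 (edgeR adjusted p = 0.0492), miR-34b-3p at 1.45 (edgeR adjusted p = 0.0179) and miR-34c-3p at 1.92 (edgeR adjusted p = 0.0157). With totals counted without miR-122-5p the median moved down by 0.72 and the 3 members were at 0.20, 0.36 and 0.79, none called. Of 388 miRNAs in that setting, 57 were called higher and 160 lower.

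**Figure D3:**
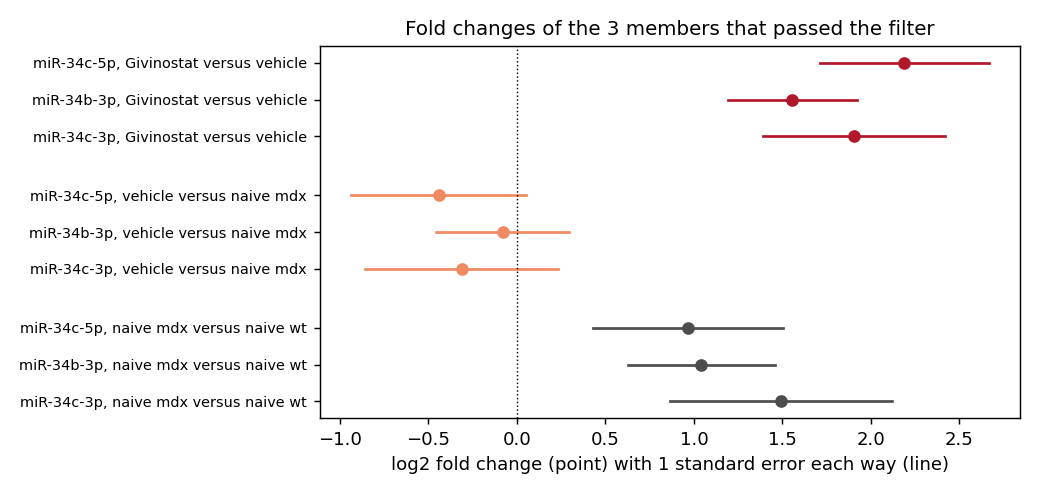
log2 fold change (horizontal axis, point) with 1 standard error each way (line) of the 3 members that passed the filter, in 3 comparisons from the same model. The points for naive mdx versus naive wt lie between 0.97 and 1.49, those for vehicle versus naive mdx between -0.44 and -0.08, and those for Givinostat versus vehicle between 1.56 and 2.19.

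Vehicle against naive mdx mice sets gavaged against undosed mdx mice without the drug. Its vehicle mice also serve as the controls for Givinostat. The log2 fold changes were -0.08 for miR-34b-3p with an SE of 0.38, -0.31 for miR-34c-3p with an SE of 0.55, and -0.44 for miR-34c-5p with an SE of 0.49, each smaller than its standard error. The groups overlapped for all 3, while 1.09% of all tested miRNAs were apart on the higher side and 1.09% on the lower side. Without naive mdx mouse 37, miR-34c-5p was at 0.09 and miR-34c-3p at -0.09.

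Givinostat against vehicle is the contrast behind the choice of the family, so the following values are descriptive. miR-34c-5p had a log2 fold change of 2.19 with an SE of 0.48, miR-34c-3p one of 1.90 with an SE of 0.51, and miR-34b-3p one of 1.56 with an SE of 0.36. They stood at ranks 3, 4 and 5 of 368 from the top, and the median over the 3 was 1.90, beside -0.02 over all tested miRNAs. For each of the 3 the Givinostat mice lay above the vehicle mice without overlap, which held for 4.35% of all tested miRNAs on the higher side and 3.26% on the lower side. The margin was thin for miR-34c-3p, with mouse 31 at 10.73 CPM and vehicle mouse 41 at 10.29 CPM.

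The 3 Givinostat mice differed widely from each other. For miR-34c-5p the CPM of mouse 34 was 8.96-fold the vehicle mean, that of mouse 35 was 2.86-fold and that of mouse 31 was 1.94-fold. For miR-34b-3p the same mice stood at 4.81-fold, 2.62-fold and 1.46-fold, and for miR-34c-3p at 7.92-fold, 2.23-fold and 1.21-fold. The order of the mice was thus the same in all 3 members and in miR-449a-5p. Against all 10 mice that received no Givinostat, 3 of 3 Givinostat mice were higher for miR-34b-3p and 2 of 3 for miR-34c-5p and for miR-34c-3p, mouse 31 being the exception. For miR-34b-3p mouse 31 was at 36.97 CPM, close to the 33.49 CPM of vehicle mouse 40. How many of all tested miRNAs do the same was not counted. Without mouse 34 the fold changes were 1.25 for miR-34c-5p, 1.02 for miR-34b-3p and 0.76 for miR-34c-3p. Mouse 34 was the highest of the 13 libraries for 21 of the 368 tested miRNAs (5.71%), and its library total and miR-122-5p share (4.64%) lay within the range of the other mdx mice.

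A red blood cell miRNA was also higher in Givinostat than in vehicle mice. Mouse 31 was above mouse 35 in it, the reverse of their order in the 3 tested family members. miR-451a, which is abundant in red blood cells, stood at 5322, 5548 and 3391 CPM in Givinostat mice 31, 34 and 35, and at 3343, 2942, 2613 and 2363 CPM in vehicle mice 40 to 43. The groups did not overlap, mouse 35 lay close to vehicle mouse 40, and the log2 fold change was 0.76 with an SE of 0.22. Of all tested miRNAs, 4.35% were apart on the higher side and 3.26% on the lower side. Among tested miRNAs of the lists described below, miR-451a alone had Givinostat and vehicle mice apart (1 of 5 in its list). The median of its list was 0.76, which was the value of miR-451a itself. miR-486b-5p, of the same list, was at -0.12 with an SE of 0.39. These 2 also differed in naive mdx against naive wt mice, with miR-486b-5p at 1.46 and miR-451a at -1.17. The summed level of the list, which includes miR-486b-5p, was 10533 to 12317 CPM in Givinostat mice and 8300 to 13184 CPM in vehicle mice, which overlap. In naive wt mice, where the family was lowest, miR-451a was at 4854 to 6034 CPM. The part of red blood cells in the family's values was not tested.

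**Figure D4:**
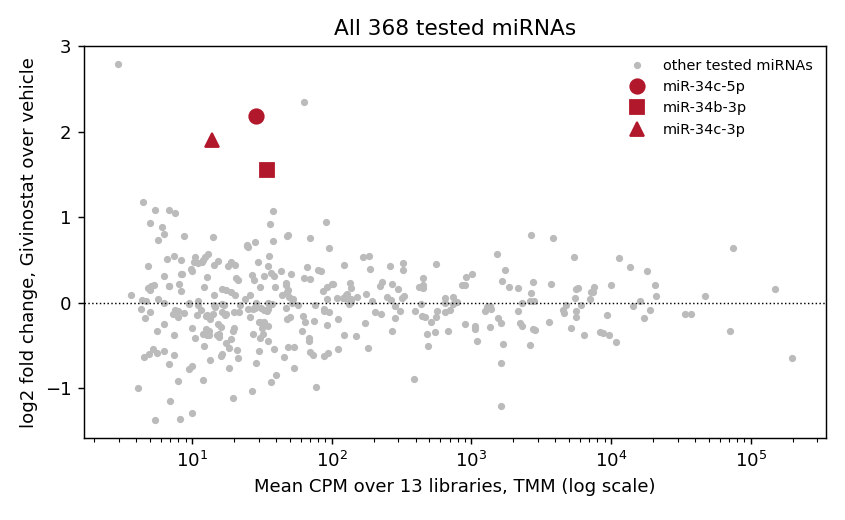
log2 fold change of Givinostat over vehicle (vertical axis) against mean CPM over 13 libraries (horizontal axis, log scale) for all 368 tested miRNAs in grey, with the 3 family members in red. The members sit at 2.19, 1.90 and 1.56, at ranks 3, 4 and 5 from the top.

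Ratios of members within a library do not depend on scaling between libraries. The log2 ratio of miR-34c-5p to miR-34c-3p, with 1 added to each count, was 1.19 ± 0.24 in Givinostat (SD, n = 3), 0.76 ± 0.24 in vehicle (SD, n = 4), 0.75 ± 0.66 in naive mdx and 1.47 ± 0.75 in naive wt mice (SD, n = 3 each). That of miR-34b-3p to miR-34c-3p was 1.40 ± 0.54 in Givinostat, 1.37 ± 0.71 in vehicle, 1.25 ± 0.38 in naive mdx and 1.74 ± 0.70 in naive wt mice. All 4 groups overlapped in both ratios. Naive mdx and naive wt mice were compared for 4 ratios by two-sided exact permutation tests (3 against 3, smallest p 0.1). In these exact permutation tests the difference was -0.72 for miR-34c-5p to miR-34c-3p (p = 0.3, adjusted p = 0.533 over the 4 ratios), -0.49 for miR-34b-3p to miR-34c-3p (p = 0.4, adjusted p = 0.533), -0.23 for miR-34c-5p to miR-34b-3p (p = 0.9, adjusted p = 0.9) and 0.73 for miR-34c-5p to miR-34a-5p (p = 0.3, adjusted p = 0.533). Naive mdx mouse 36 alone set the sign for miR-34c-5p to miR-34b-3p, which was 0.30 without it.

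**Figure D5:**
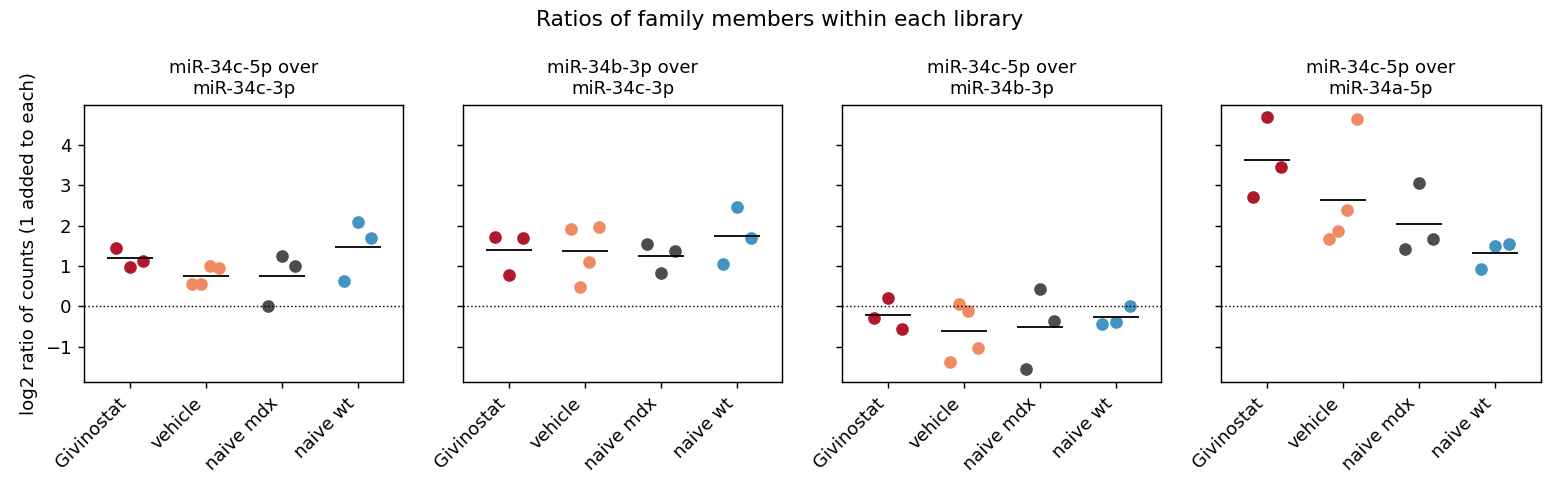
log2 ratios of raw counts of members read in the same library, with 1 added to each count (vertical axis), by group, with 1 point for each mouse and a bar at the group mean. The ratio of miR-34c-5p to miR-34a-5p has the widest range, with group means of 3.61 in Givinostat, 2.64 in vehicle, 2.05 in naive mdx and 1.32 in naive wt mice. Givinostat mice (2.70 to 4.68) and vehicle mice (1.66 to 4.64) overlap in it. The highest vehicle value is that of mouse 43, which had 0 counts of miR-34a-5p.

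The miRNAs outside the family whose levels were most like that of miR-34c-5p over the 13 libraries were miR-98-3p (Pearson r 0.79 of log2 CPM), miR-350-3p (0.76), miR-676-5p (0.76), miR-653-5p (0.73) and miR-28a-3p (0.70). The family's own miR-34c-3p had r = 0.90 and miR-34b-3p r = 0.84. These are descriptions over libraries that share group differences and depth. Without mouse 34 the family values were 0.76 and 0.67, and over the 10 mice not given Givinostat they were 0.66 and 0.33. Of the 5 outside miRNAs, 2 stayed among the 5 most alike without mouse 34, and 0 did over the 10 mice. miR-98-3p, the most alike, averaged 26.4 ± 5.35 CPM in Givinostat (SD, n = 3), 18.9 ± 6.28 CPM in vehicle (SD, n = 4), 18.5 ± 4.50 CPM in naive mdx and 12.1 ± 2.58 CPM in naive wt mice (SD, n = 3 each).

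Lists of miRNAs linked to p53, and of marker miRNAs of other sources in plasma, were read beside the family. In counts of list members, rose and fell mean called higher or lower by edgeR at adjusted p under 0.05. In naive mdx against naive wt mice 26.9% of all tested miRNAs rose and 16.6% fell. With plain library totals 118 of 368 rose and 23 fell. With totals without miR-122-5p 57 of 388 rose and 160 fell. Of 8 other miRNAs linked to p53, mainly in human cells, 7 were tested and 0 rose and 3 fell in naive mdx against naive wt mice, with a median log2 fold change of -0.68. Their most abundant members, miR-215-5p at -0.68 (SE 0.33, edgeR adjusted p = 0.103) and miR-143-3p at -0.63 (SE 0.30, edgeR adjusted p = 0.0889), did not pass the test. With plain library totals 1 fell, and with totals without miR-122-5p 5 fell. In Givinostat against vehicle mice the median was 0.18, and 0 of the 7 had groups that did not overlap. Of all tested miRNAs, 4.35% were apart on the higher side there and 3.26% on the lower side.

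All 7 epithelial miRNAs fell in naive mdx against naive wt mice, where 16.6% of all tested miRNAs fell. With plain library totals 2 of the 7 fell. Among the 7, miR-205-5p, a marker of stratified epithelia, fell by 1.65 on the log2 scale (SE 0.26, edgeR adjusted p = 0.00012). miR-200b-3p, which holds cells in the epithelial state, fell by 0.88 (SE 0.25, edgeR adjusted p = 0.00955). The summed level of the 7 was 5647 to 6798 CPM in Givinostat mice and 4081 to 6032 CPM in vehicle mice, which overlap. Of the miR-183 cluster, found in sensory and ciliated epithelium, 2 were tested and 1 fell, miR-183-5p at -1.09 (SE 0.34, edgeR adjusted p = 0.0156). Of 8 neuron miRNAs 3 were tested and 2 fell, miR-9-5p at -2.47 (SE 0.76, edgeR adjusted p = 0.0147) among them. With plain library totals 0 of the miR-183 cluster and 1 of the neuron miRNAs fell. With totals without miR-122-5p, 3 of the miR-183 cluster were tested and 3 fell, as did 3 of 3 neuron miRNAs.

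Of 17 miRNAs of a testis cluster 9 had a count and 0 passed the filter, with a summed level of 2.48 to 7.83 CPM in Givinostat mice and 3.85 to 13.2 CPM in vehicle mice. Of 7 tested muscle miRNAs 6 rose in naive mdx mice, where 26.9% of all tested miRNAs rose and 16.6% fell. Among them miR-206-3p rose by 4.26 (SE 0.36, edgeR adjusted p = 1.46e-07) and miR-1a-3p by 3.82 (SE 0.53, edgeR adjusted p = 2.97e-05). Of 5 tested red blood cell miRNAs 2 rose and 3 fell, miR-451a at -1.17 (SE 0.24, edgeR adjusted p = 0.00106) and miR-486b-5p at 1.46 (SE 0.42, edgeR adjusted p = 0.0107), and all 4 liver miRNAs fell. With plain library totals 2 red blood cell and 3 liver miRNAs fell, and with totals without miR-122-5p 1 red blood cell miRNA rose, while the 6 muscle miRNAs rose under both. Among the tested miRNAs of these lists, mouse 34 was the highest of the 13 libraries for 1 muscle miRNA and for no other. Over all tested miRNAs it was the highest for 5.71%. The part of any of these tissues in the family's plasma levels was not tested.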

How the data were processed

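Plasma small RNA of 13 mice was analysed from the table of raw counts that the authors deposited. Per the labels and the study's methods, libraries (NEBNext small RNA kit) were read out with bcl2fastq 1.37.0, trimmed (cutadapt 1.4.2 per the processing notes, another trimmer per the methods), mapped to GRCm38 with Bowtie 1.0.0, short reads without mismatch, and annotated with miRBase 21, a count being the sum of all isomiR reads of a mature miRNA. The authors also deposited log2 values, which hold no value for counts of 3 or fewer and served only the limma alternatives, with missing values set to 0 on the linear scale. All 13 columns matched a sample by name. No molecular identifiers are described.

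All miRNAs passing edgeR's filter (minimum count 10) entered a fit of 4 group means in edgeR 4.0.16 (R 4.3.3, TMM, quasi-likelihood test, Benjamini-Hochberg, threshold 0.05); the steps were tested on simulated data. Alternatives used DESeq2 1.42.0, limma 3.58.1, other scalings and filters, and leaving out each mouse. Named were all 10 members, miRNAs sharing a member's seed, the 5 outside the family most like miR-34c-5p, and up to 2 of the most abundant miRNAs of each list. The members and lists were chosen with earlier results of these data known. The titles give separate mouse numbers, and the closest pair of libraries within a group differed by a chi-square of 104.5 per degree of freedom, so no library was counted as a repeat.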

Additional observations from a re-analysis of the deposited data

Results flagged for a closer look

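The CPM of miR-34a-5p in vehicle mouse 43 (0 counts) stood apart from the other 3 vehicle mice (5, 5 and 4 counts), with a gap to the nearest of them that was 0.837 of the range of the group. Chance sets apart about 1 in 20 such groups, and by library total a count of 0 in that library allows 2.14 CPM, where the group was at 2.51 ± 1.75 CPM (SD, n = 4) by library total.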

How the results depend on the processing

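All values here come from edgeR unless another tool is named. In naive mdx against naive wt mice 99 miRNAs were called higher and 61 lower. The higher calls were 118 of 368 with library totals, and 115 and 112 of 368 with limma (pseudocounts 1 and 5). They were 112 of 1203 with no filter, 70 of 341 in a model of these 2 groups and 87 of 313 at a mean of at least 10 CPM. The lower calls were 96 with upper-quartile factors, 23 with library totals, 19 and 18 with limma (pseudocounts 1 and 5) and 160 with totals without miR-122-5p, where 57 were higher. Leaving out each mouse gave 75 to 104 higher and 40 to 64 lower, the 40 without naive wt mouse 89. Beside the calls by library totals given above (1.30, 1.45 and 1.92), miR-34c-3p was called with no filter (1.46, adjusted p = 0.0385) and in a model of these 2 groups (1.45, adjusted p = 0.0414). miR-34b-3p was called at a mean of at least 10 CPM (1.03, adjusted p = 0.0472). limma, on the deposited log2 values with missing ones set to 0 before the pseudocount, called miR-34b-3p (1.38 and 1.20) and miR-34c-3p (2.48 and 1.50) with pseudocounts 1 and 5. Those values keep the authors' scaling in place of TMM. Naive wt mouse 89 had 3 counts of miR-34c-3p, a level at which the deposited values are missing. Without each mouse miR-34c-5p ran between 0.47 and 1.34 (adjusted p 0.04998 to 0.523, called without naive mdx mouse 36), miR-34b-3p between 0.98 and 1.08 (none called) and miR-34c-3p between 1.15 and 1.92 (adjusted p 0.0463 to 0.208, called without naive wt mouse 86). In Givinostat against vehicle mice the ranges were 1.25 to 2.51 for miR-34c-5p, 1.02 to 1.85 for miR-34b-3p and 0.76 to 2.29 for miR-34c-3p, each lowest without mouse 34. In vehicle against naive mdx mice, without each mouse, they were -0.78 to 0.09 for miR-34c-5p and -0.20 to 0.17 for miR-34b-3p. For miR-34c-3p the range was -0.41 to -0.087, the latter without naive mdx mouse 37. Under the other alternatives they were -0.57 to -0.35 for miR-34c-5p, -0.35 to 0.01 for miR-34b-3p and -0.49 to -0.22 for miR-34c-3p. The difference in the log2 ratio of miR-34c-5p to miR-34b-3p ran between -0.69 and 0.30. The cause of these shifts was not tested. Fold changes of all 3 members stayed above 0 in naive mdx against naive wt and in Givinostat against vehicle mice under every alternative run. No paired analysis was possible because no mouse number occurs in more than 1 group. Depth limits the members with no counts, since a library without a read of a miRNA may still hold 1.03 to 2.57 CPM of it by library total.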
